A study of Mus musculus with 15 samples.

Results

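Fcgr1, Fcgr3, Fcgr4 and Fcgr2b encode the mouse receptors for the Fc part of IgG, Fcer1g and Tyrobp encode the adaptor chains that carry their signals or those of related receptors, and Trem2 encodes a receptor that signals through Tyrobp. All probes of these 7 genes were taken by their RefSeq accession, which gave 10 probes for 7 of 18217 named genes on the array. Fcgr2b had 3 probes, Trem2 had 2 and each of the other 5 genes had 1, and the probe with the highest mean signal stood for its gene (the main probe). Every one of the 10 probes lay well above background on all 15 arrays.

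Fc receptors let a macrophage, a neutrophil or a natural killer cell respond to a target that antibody has coated. Fcgr1, Fcgr3 and Fcgr4 are activating receptors and need the FcR gamma chain, the product of Fcer1g, whose immunoreceptor tyrosine-based activation motif (ITAM) is phosphorylated by Src family kinases and then binds Syk. Fcgr2b is the inhibitory receptor, with an inhibitory motif (ITIM) of its own that recruits the phosphatase SHIP1. Tyrobp, also called DAP12, is a second ITAM adaptor of myeloid and natural killer cells, and Trem2 is a lipid-sensing receptor of macrophages. Expression of Fcgr1 and Fcgr4 on phagocytes is known to be raised by interferon gamma.

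Total RNA of whole tissue was measured on 15 single-colour Agilent arrays, 3 for each of 5 groups. Heart allografts came from male C57BL/10 (B10) donors, were placed in the abdomen of CBA recipients, which kept their own heart, and were taken on post-operative day 5 (POD5). Liver allografts from B10.BR (BR) donors, which replaced the liver of B10.D2 (D2) recipients, were taken at POD5 or POD8, and each organ had its controls. The labels call the controls normal tissue while the study's results call them isografts, so they are called controls here, and their strain is not given in the sources used here. An allograft held donor tissue together with whatever cells of the recipient had entered it, and the arrays do not separate them.

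The organ labels matched their markers. All 6 cardiomyocyte markers were higher in heart than in liver controls, with a median log2 difference of 11.11, and all 5 measured hepatocyte markers were lower, with a median of -12.35. The 75th percentile of the processed signal ran from 92.1 to 1251 over the 15 arrays, and 52.5% to 70.4% of probes lay well above background. Liver control replicate 1 was the dimmest array. Its signals for the 7 genes were 1.72 to 5.28 times lower than the mean of the other 2 liver controls after normalization, so the liver values of the 7 genes and the list counts that move are also given without it. The 3 heart allografts lay on 1 slide and the 3 heart controls on another, so in the heart a slide effect and a graft effect cannot be told apart.

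In the heart at POD5, 3 of the 7 genes were higher in the allografts, 1 was lower and 3 did not pass the test. Fcgr4 was 5.22-fold, Fcgr1 2.71-fold and Fcer1g 2.28-fold higher, while Trem2 was 2.63-fold lower. Fcgr3, Fcgr2b and Tyrobp differed by 0.23 or less on the log2 scale, and the median difference of the 7 was 0.23 against 0.00 over all named genes. Of all 18162 named genes tested, 18.6% were called higher and 19.4% lower in this comparison, so 3 higher calls and 1 lower call among 7 genes are read against a wide response. All 3 allografts lay above all 3 controls for the 3 genes called higher, an order that 30.1% of all named genes had. In whole tissue, fewer cells of a type and less RNA per cell cannot be told apart.

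**Figure D1:**
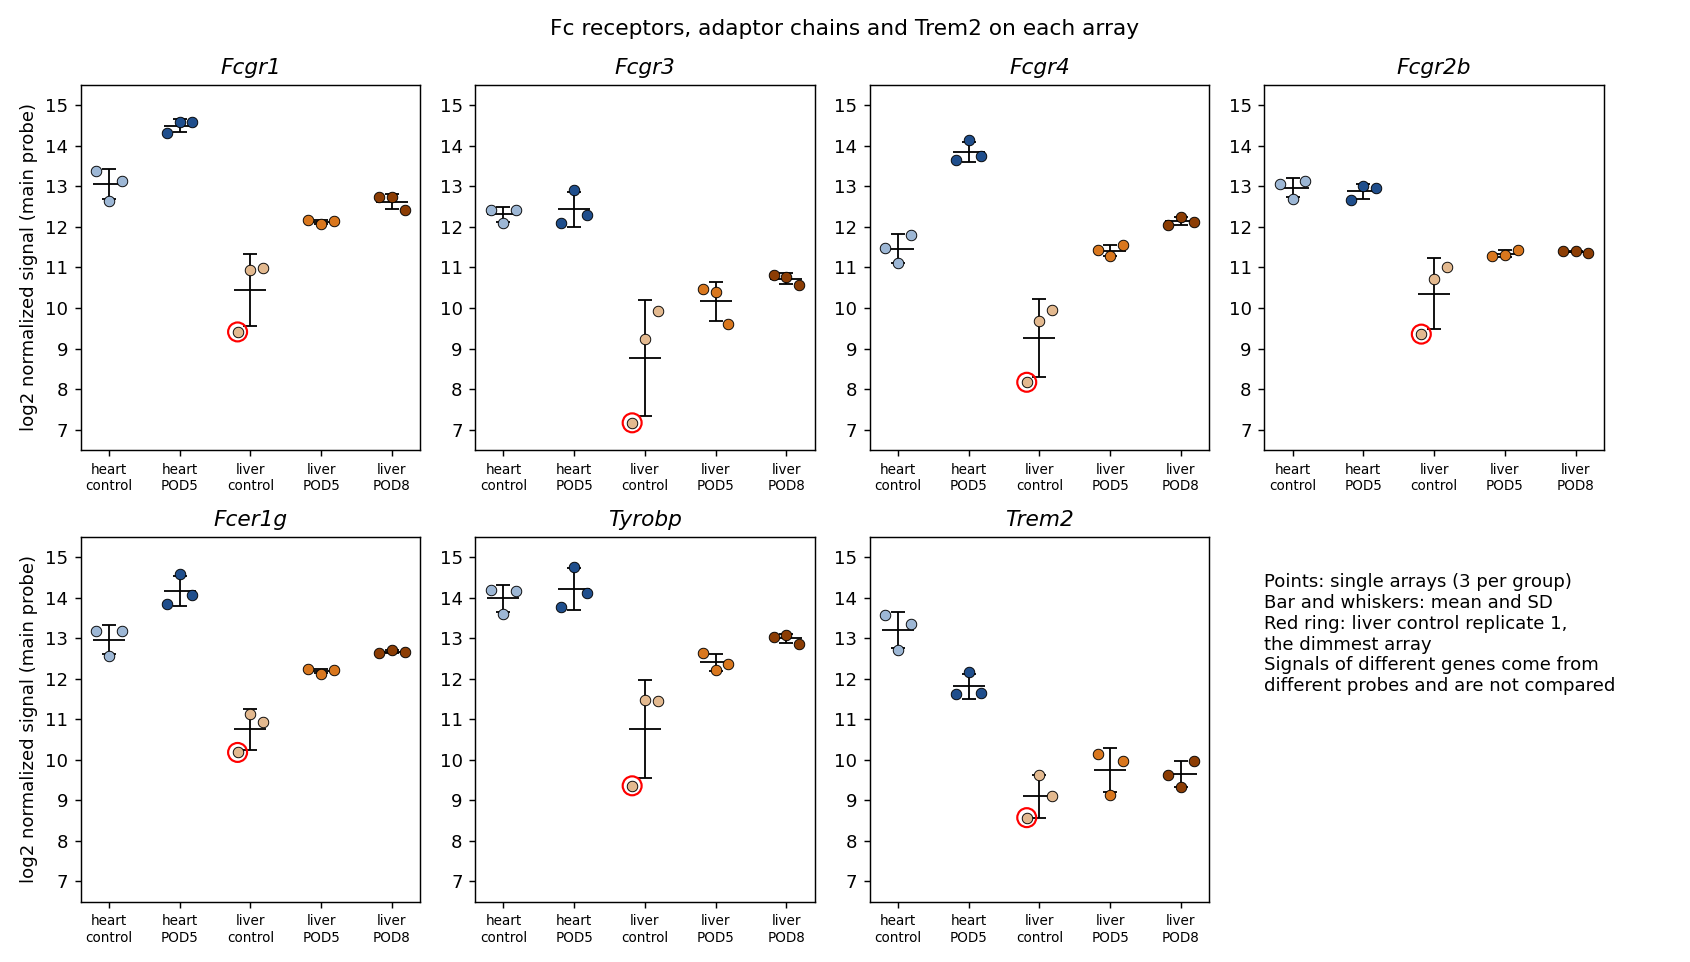
Normalized log2 signal of the main probe of each gene (y axis) on every array, in the 5 groups (x axis), with the mean and SD of 3 arrays as a bar and whiskers; the red ring marks liver control replicate 1. Fcgr1, Fcgr4 and Fcer1g lie higher on all 3 heart allografts than on all heart controls and Trem2 lies lower, while liver control replicate 1 is the lowest point for all 7 genes.

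Fcgr1, the high-affinity IgG receptor, gave normalized signals of 20229, 24603 and 24440 on the heart allografts and of 10636, 6400 and 9007 on the heart controls. The groups did not overlap. The log2 difference was 1.44 ± 0.22 (SE, 3 arrays against 3, adjusted p = 0.00738).

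Fcgr4, an activating receptor of monocytes, macrophages and neutrophils that binds IgG2a and IgG2b, gave signals of 12961, 18041 and 13801 on the allografts and 2869, 2196 and 3596 on the controls. The lowest allograft was far above the highest control. The log2 difference was 2.38 ± 0.23 (SE, adjusted p = 0.00224), the largest among the 7 genes.

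Fcer1g, the gamma chain, gave 14743, 24301 and 16974 on the allografts and 9195, 6024 and 9214 on the controls, again without overlap. Its log2 difference was 1.19 ± 0.27 (SE, adjusted p = 0.0238). The call was the least stable of the 3 higher ones. Leaving out heart allograft replicate 3, or any of heart control replicates 1, 2 and 3, gave adjusted p-values of 0.0574 to 0.0618.

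Fcgr3, the low-affinity activating receptor, gave 4357, 7756 and 5004 on the allografts and 5491, 4358 and 5437 on the controls. The groups overlapped, and the log2 difference was 0.13 ± 0.25 (SE, adjusted p = 0.737). Tyrobp overlapped too, with 13870, 27780 and 17756 on the allografts and 18579, 12437 and 18392 on the controls. Its log2 difference was 0.23 ± 0.31 (SE, adjusted p = 0.616). Heart allograft replicate 2 was the highest array for both genes, and without it their log2 differences were -0.12 and -0.046.

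Fcgr2b, the inhibitory receptor, gave 6526, 8220 and 7932 on the allografts and 8488, 6632 and 9016 on the controls. The main probe has 10 spots on each array, with an SD between spots of 0.034 to 0.079 on the log2 scale, so its value is well measured within an array. The log2 difference was -0.08 ± 0.16 (SE, adjusted p = 0.734), with a 95% confidence interval from -0.50 to 0.33. Its other 2 probes gave 0.40 (adjusted p = 0.127) and 0.34 (adjusted p = 0.171). So no probe passed the test and the probes did not share a direction.

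Trem2 was lower in the heart allografts. Its main probe gave 3158, 4564 and 3201 on the allografts and 12104, 6643 and 10418 on the controls, with no overlap. The share of all named genes with such a lower order was not counted, while 19.4% were called lower. The log2 difference was -1.39 ± 0.28 (SE, adjusted p = 0.0174), and the other probe gave -1.31 ± 0.31 (SE, adjusted p = 0.0281). The size held without any single array, from -1.65 to -1.21. The call did not, since leaving out heart allograft replicate 1 or 3 or heart control replicate 1 or 3 gave adjusted p-values of 0.0552 to 0.0673.

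Promoter sequence is shown for the 3 genes that were higher in the heart allografts, for Trem2, which was lower, and for Fcgr2b, the inhibitory receptor. RefSeq windows of the GRCm38.p6 assembly covered 6 of the 7 genes. Each stretch below is the 150 bases before the gene's start, on the gene's strand, and capitals mark matches to TTCNNNGAA (the interferon gamma activated site, which reads the same on both strands), GAAANNGAA (the core of the interferon-stimulated response element) or GAGGAA (the core of a PU.1 site, written TTCCTC on the other strand). Both strands were searched, and no match overlapped another.
Fcgr1, chr3:96293970-96294119, minus strand: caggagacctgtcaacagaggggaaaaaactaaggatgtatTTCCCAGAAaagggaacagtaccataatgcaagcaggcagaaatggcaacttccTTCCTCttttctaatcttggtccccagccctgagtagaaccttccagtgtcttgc
Fcgr4, chr1:171018776-171018925, plus strand: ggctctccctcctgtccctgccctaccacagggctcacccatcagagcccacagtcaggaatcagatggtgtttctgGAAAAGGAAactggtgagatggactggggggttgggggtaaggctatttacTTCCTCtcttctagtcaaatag
Fcer1g, chr1:171234350-171234499, minus strand: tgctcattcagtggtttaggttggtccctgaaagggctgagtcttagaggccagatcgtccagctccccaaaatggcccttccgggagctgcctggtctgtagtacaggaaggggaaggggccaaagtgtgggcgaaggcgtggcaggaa
Trem2, chr17:48346251-48346400, plus strand: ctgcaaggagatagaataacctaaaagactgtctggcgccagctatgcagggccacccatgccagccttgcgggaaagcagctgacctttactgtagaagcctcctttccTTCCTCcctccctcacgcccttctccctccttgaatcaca
Fcgr2b, chr1:170976072-170976221, minus strand: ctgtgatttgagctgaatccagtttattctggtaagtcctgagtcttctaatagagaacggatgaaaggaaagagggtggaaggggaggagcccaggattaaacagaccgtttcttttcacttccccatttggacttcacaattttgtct

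Fcgr1 held the match to TTCNNNGAA, at positions -109 to -101 before its start, and Fcgr4 held the match to GAAANNGAA, at -73 to -65. A match to GAGGAA lay upstream in Fcgr1, Fcgr4 and Trem2, and in the windows of Fcgr3 as well. Within windows of 300 bases, 250 before and 50 after the start, 8.30% of all 32851 promoters held TTCNNNGAA, 8.56% held GAAANNGAA and 28.3% held GAGGAA. Fcgr2b and Fcer1g held none of these letters in their windows. The matches are descriptions of sequence, and binding was not measured.

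Fcgr2b, Fcgr4, Fcgr3 and Fcer1g are neighbours on chromosome 1, while Fcgr1 lies on chromosome 3, Tyrobp on chromosome 7 and Trem2 on chromosome 17. Of the 4 neighbours, Fcgr4 and Fcer1g were called higher in the heart allografts and Fcgr3 and Fcgr2b were not called. Fcgr2b and Fcgr3 have similar coding sequences. Probe sequences were not used here, so a signal that their probes may share was not tested.

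Markers of other cells were called in the heart as well. Their counts are read against the 18.6% of all named genes called higher and the 19.4% called lower. Small counts, such as 1 of 6 or 1 of 5, are near those shares. All 7 measured T cell markers and all 5 natural killer cell markers were called higher, and 5 of 6 endothelial markers were called lower. Of 9 macrophage and monocyte markers, only Ly6c2 was called higher (log2 difference 1.71) and only Ms4a7 lower (-1.73), although the summed signal of the 9 ran from 167353 to 187151 on the allografts against 72742 to 98538 on the controls, and all 9 lay well above background on every heart array. Of 6 Kupffer or resident macrophage markers, 3 were called lower, including Vsig4 (-4.57) and Cd5l (-3.99). Of 6 neutrophil markers 2 were called lower and 1 higher, and their sum ran from 8537 to 34679 on the allografts against 34880 to 56003 on the controls. Of the remaining lists, 1 of 6 B cell markers and 2 of 5 hepatocyte markers were called higher, as was the sixth endothelial marker, while 2 of 6 mast cell, 2 of 6 cardiomyocyte and 1 of 5 hepatocyte markers were called lower. The part of these cell types in the result was not tested.

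In the liver at POD5, the main probes of all 7 genes had positive differences, from 0.65 for Trem2 to 2.15 for Fcgr4 on the log2 scale, with a median of 1.44 against -0.05 over all named genes, and 0 of 7 passed the test with limma and Benjamini-Hochberg adjustment, while 4 of the 7 and 4521 of all 18208 named genes had an unadjusted p under 0.05. The methods' t-test and SFC, a test by bins of signal described with the processing, called 0 as well. Of all named genes, 3.39% were called higher. The 3 allografts lay above all 3 controls for 5 of the 7 genes, an order that 16.4% of all named genes had. Once liver control replicate 1 was left out, Fcgr1, Fcgr4 and Fcer1g were called, with 2.95% of all named genes.

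At POD8, Fcgr4 (7.36-fold) and Fcer1g (3.77-fold) were called higher and the other 5 genes were not, with a median difference of 1.95 over the 7 genes against -0.09 over all named genes. Of all named genes, 4.66% were called higher at POD8. The 3 allografts lay above all 3 controls for 6 of 7 genes, against 15.6% of all named genes, and Trem2 was the exception. With liver control replicate 1 left out, Fcgr1 and Tyrobp were called too, which made 4 of 7 against 5.83% of all named genes. The POD5 and POD8 comparisons share the same 3 controls, so a dim control moves both.

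**Figure D2:**
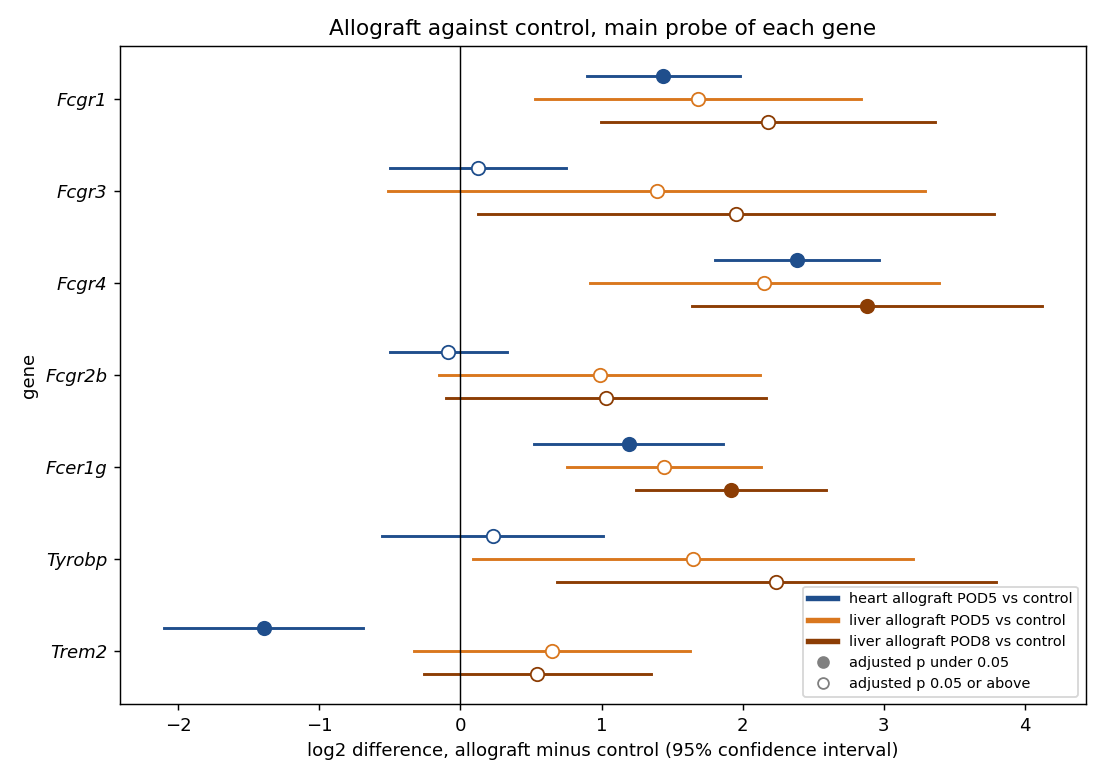
Log2 difference between allografts and controls (x axis) for the main probe of each of the 7 genes (y axis), as a point with its 95% confidence interval; filled points had an adjusted p under 0.05. Fcgr4, at 2.38, 2.15 and 2.88, has the largest difference in each of the 3 comparisons, the liver intervals are wider than the heart intervals for each gene, and Trem2 is at -1.39 in the heart and at 0.65 and 0.55 in the liver.

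Fcgr4 gave 2750, 2492 and 2983 on the liver allografts at POD5, 4246, 4885 and 4472 at POD8, and 288, 820 and 984 on the liver controls. The 3 groups did not overlap. The log2 difference from the controls was 2.15 ± 0.49 (SE, adjusted p = 0.0901) at POD5 and 2.88 ± 0.49 (SE, adjusted p = 0.0408) at POD8. These became 1.61 (adjusted p = 0.0315) and 2.33 (adjusted p = 0.00799) without liver control replicate 1.

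Fcer1g followed the same order, with 4815, 4466 and 4749 at POD5, 6367, 6649 and 6448 at POD8, and 1161, 2225 and 1968 on the controls. The log2 difference was 1.44 ± 0.27 (SE, adjusted p = 0.0610) at POD5 and 1.92 ± 0.27 (SE, adjusted p = 0.0261) at POD8. Without liver control replicate 1 it was 1.16 (adjusted p = 0.0374) and 1.63 (adjusted p = 0.00886). Both POD8 calls were lost when any POD8 array was left out, with adjusted p-values of 0.126 to 0.167 for Fcgr4 and 0.0942 to 0.126 for Fcer1g, and that of Fcgr4 also without liver control replicate 2 (adjusted p = 0.0802). Of all probes, 1453 were called higher at POD8 with all arrays, and 289 to 518 with a POD8 array left out. Without liver control replicate 2 they were 1105.

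Fcgr1 gave 4607, 4294 and 4534 at POD5, 6817, 6812 and 5424 at POD8, and 681, 1977 and 2016 on the controls. Every allograft lay above every control. The log2 difference was 1.68 ± 0.46 (SE, adjusted p = 0.128) at POD5 and 2.18 ± 0.47 (SE, adjusted p = 0.0690) at POD8. It became 1.16 (adjusted p = 0.0327) and 1.66 (adjusted p = 0.0138) without liver control replicate 1.

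Tyrobp gave 6311, 4762 and 5291 at POD5, 8408, 8653 and 7461 at POD8, and 657, 2840 and 2776 on the controls. The groups did not overlap, yet the spread of the controls (SD 1.21 on the log2 scale) left the log2 differences of 1.65 (adjusted p = 0.224) and 2.24 (adjusted p = 0.117) short of the threshold. Leaving out liver control replicate 1 gave 0.95 (adjusted p = 0.0829) and 1.54 (adjusted p = 0.0105).

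Fcgr3 gave 1424, 1345 and 786 at POD5, 1809, 1754 and 1528 at POD8, and 144, 599 and 967 on the controls. The third POD5 array lay below the third control, and the POD8 arrays lay above all controls. The log2 differences were 1.39 (adjusted p = 0.359) and 1.95 (adjusted p = 0.201), and 0.59 and 1.15 without liver control replicate 1.

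Fcgr2b gave 2480, 2545 and 2784 at POD5, 2698, 2698 and 2643 at POD8, and 656, 1679 and 2049 on the controls. The 6 allografts lay within a narrow band above the controls. The log2 differences were 0.99 (adjusted p = 0.293) and 1.03 (adjusted p = 0.262), and were 0.49 and 0.53 without liver control replicate 1. Its other probes gave 1.19 to 1.31, none of them called.

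In the liver, Trem2 gave 1134, 560 and 996 at POD5, 793, 643 and 1000 at POD8, and 381, 785 and 548 on the controls. The allografts overlapped the controls at both times. The log2 differences were 0.65 ± 0.39 (SE, adjusted p = 0.403) and 0.55 ± 0.32 (SE, adjusted p = 0.383), and 0.39 and 0.28 without liver control replicate 1.

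Markers of other cells were also called higher in the liver allografts. Of all named genes, 3.39% were called higher at POD5 and 4.66% at POD8. Of 7 T cell markers 5 were called higher at each time, of 5 natural killer cell markers 1 at POD5 and 4 at POD8, and of 9 macrophage and monocyte markers 3 at each time, led by Ccr2 (3.13 at POD5) and Ly6c2 (2.88 at POD5). The summed signal of the 9 macrophage markers ran from 62696 to 71231 at POD5, from 74283 to 79531 at POD8 and from 13192 to 24544 on the controls. That of 6 Kupffer cell markers ran from 100975 to 120125, from 123825 to 151652 and from 27075 to 72865, and 1 of them, the scavenger receptor Marco, was called higher at POD8 (2.26). With all arrays, limma called no neutrophil, B cell, mast cell, endothelial or hepatocyte marker in the liver allografts. Of 6 cardiomyocyte markers, Actc1 was called higher (1.77) and Ryr2 lower at POD5, and Tnnt2 lower at POD8 (at least 3.09-fold). Ryr2 was not well above background on any liver control, so its size is not given. At POD8, 1.73% of all named genes were called lower, and at POD5 320 of 41155 probes were. Without liver control replicate 1, macrophage markers called higher were 4 at POD5 and 6 at POD8, natural killer cell markers 2 and 3, Kupffer cell markers 0 and 2, and endothelial markers 0 and 1. Cardiomyocyte markers then had 0 called at POD5, and 1 called higher and 1 lower at POD8. Of all named genes, 2.95% and 5.83% were then called higher, and 0.505% and 2.19% lower. The part of these cell types in the result was not tested.

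Liver allografts 1 and 2 at POD8 shared a slide with liver controls 1 and 2. Within that slide the log2 differences were 3.23 for Fcgr4 (adjusted p = 0.135), 2.02 for Fcer1g (adjusted p = 0.136) and 2.55 for Fcgr1 (adjusted p = 0.171), from 2 arrays against 2 that include the dimmest control. This fit called 0 of all 41157 probes, so the missing calls are not particular to these genes. With slide as a random block over all 6 arrays, the adjusted p was 0.0334 for Fcgr4 and 0.0237 for Fcer1g. At POD5 no liver allograft shared a slide with a control, and with the random block the lowest adjusted p among the 7 genes was 0.123. No allograft at POD5 shared a slide with one at POD8 either.

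Between POD5 and POD8 in the liver, limma called 0 of the 7 genes, and 0% of all 18211 named genes, while 4 of the 7 and 2490 of all had an unadjusted p under 0.05. The methods' t-test and SFC called 0 of the 7 as well. All 3 POD8 arrays lay above all 3 POD5 arrays for Fcgr1, Fcgr3, Fcgr4, Fcer1g and Tyrobp, 5 of 7, against 8.43% of all named genes. The differences of these 5 ran from 0.47 for Fcer1g (adjusted p = 0.228) to 0.73 ± 0.11 for Fcgr4 (SE, adjusted p = 0.221). The inhibitory receptor Fcgr2b differed by 0.04, with a 95% confidence interval from -0.19 to 0.27, and Trem2 by -0.10, from -0.91 to 0.70.

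The change of each other gene was also taken relative to that of the inhibitory receptor Fcgr2b. In whole tissue, 2 genes compared in this way need not be expressed by the same cells. Tyrobp and Trem2 do not encode receptors for IgG. A balance of activating and inhibitory signals within a cell was therefore not measured. On each array the log2 signal of Fcgr2b was subtracted, and the change of that difference from control to allograft was tested by an exact 2-sided permutation test over arrays, which with 3 against 3 cannot give a p under 0.1. Over 18 such tests the lowest adjusted p was 0.15, so none passed and the sizes are descriptions. The share of all named genes whose groups do not overlap relative to Fcgr2b was not counted, in the heart or the liver. A lack of overlap given below is therefore also a description, not a result particular to these genes.

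In the heart, the change relative to Fcgr2b was 2.47 for Fcgr4, 1.52 for Fcgr1, 1.28 for Fcer1g and -1.31 for Trem2, and for these 4 genes the groups did not overlap (exact permutation p = 0.1, the smallest possible). For Fcgr3 and Tyrobp it was 0.21 and 0.31, and the groups overlapped. Measured against the other 2 Fcgr2b probes, those 2 values were -0.24 and -0.14, while Fcgr4, Fcgr1 and Fcer1g stayed at 2.02, 1.07 and 0.82.

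In the liver, the dim control was low for Fcgr2b too. The change relative to Fcgr2b was 1.17 at POD5 and 1.85 at POD8 for Fcgr4, and 0.70 and 1.15 for Fcgr1, with no overlap between allografts and controls. Leaving out any single array kept Fcgr4 between 1.12 and 1.22 at POD5 and between 1.80 and 1.90 at POD8. For Tyrobp it was 0.66 and 1.21, also without overlap. For Fcer1g it was 0.46 and 0.88 and for Fcgr3 0.40 and 0.92, both without overlap at POD8 only, and for Trem2 -0.34 and -0.48 with overlap. Without liver control replicate 1 the change at POD5 and POD8 was 0.10 and 0.62 for Fcgr3, 0.67 and 1.10 for Fcer1g, 0.46 and 1.01 for Tyrobp, and for Trem2 -0.25 at POD8. Over all single arrays left out, the change at POD5 ran from 0.10 to 0.73 for Fcgr3 and from -0.66 to -0.04 for Trem2. Against the other 2 Fcgr2b probes the directions stayed, but the groups separated less at POD5 for Fcgr1 (log2 change 0.47, exact permutation p = 0.2) and Tyrobp (log2 change 0.44, exact permutation p = 0.2) and at POD8 for Fcer1g (log2 change 0.67, exact permutation p = 0.4).

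**Figure D3:**
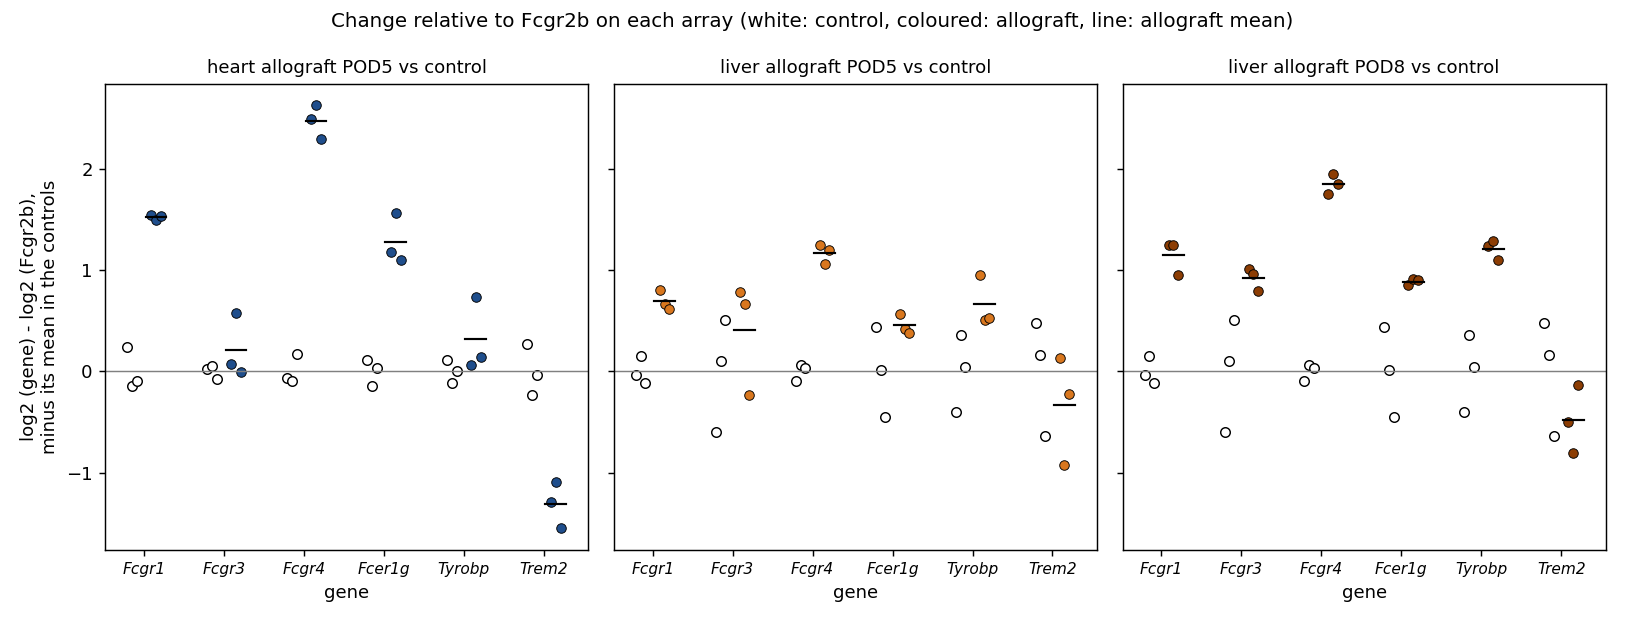
Log2 signal of each gene minus that of Fcgr2b on the same array, relative to the control mean (y axis), for 6 genes (x axis) in the 3 comparisons; white points are the 3 controls, coloured points the 3 allografts and the line their mean. Of the 6 genes, Fcgr4 has the highest allograft mean in each comparison, at 2.47, 1.17 and 1.85, and Trem2 has the lowest, at -1.31, -0.34 and -0.48.

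Whether the 2 graft models responded differently at POD5 was tested as an interaction over 12 arrays. Heart and liver grafts also differed in donor and recipient strains and in operation, so these cannot be told apart from the organ. In neither organ did a POD5 allograft share a slide with a control, so slide cannot be told apart from the responses either. Only Trem2 was called, with a heart difference of -1.39, a liver difference of 0.65 and a gap of -2.04 ± 0.50 (SE, adjusted p = 0.0269). Of all 18154 named genes, 9.54% were called in this direction. Without liver control replicate 1 the gap was -1.78 (adjusted p = 0.0458). The other Trem2 probe gave -1.93 ± 0.64 (SE, adjusted p = 0.0728). The call was lost on leaving out any of 6 arrays, heart allografts 1 and 3, heart controls 1 and 3 and liver allografts 1 and 3, with adjusted p-values of 0.0532 to 0.0692, and with slide as a random block (adjusted p = 0.0762). The remaining 6 genes ran from -1.42 for Tyrobp (adjusted p = 0.220) to 0.23 for Fcgr4 (adjusted p = 0.813), whose interval from -1.04 to 1.51 does not fix a direction. Without liver control replicate 1, Tyrobp was at -0.72, Fcgr3 went from -1.26 to -0.46 and Fcgr2b from -1.07 to -0.57, none of them called.

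The control organs differed widely. No heart control shared a slide with a liver control, so organ and slide cannot be told apart in this comparison. Before normalization, the 75th percentile of the processed signal was 1025 to 1251 on heart controls and 92.1 to 226 on liver controls. All 7 genes were higher in heart than in liver controls, from 4.60-fold for Fcgr4 (adjusted p = 0.0180) to 17.2-fold for Trem2 (log2 difference 4.11 ± 0.36, SE; adjusted p = 0.000513). Fcgr3 was 11.6-fold, Tyrobp 9.36-fold, Fcgr1 6.09-fold, Fcgr2b 6.08-fold and Fcer1g 4.65-fold higher. Of all 18159 named genes 31% were called higher, and 36.2% had all heart controls above all liver controls, as the 7 genes did. Without liver control replicate 1 all 7 were still called, with log2 differences of 1.66 to 3.85. The call for Fcgr4 was lost without heart control replicate 1 or 3 (adjusted p = 0.0616 and 0.0668) and with slide as a random block (adjusted p = 0.0535). Of the macrophage markers, 6 of 9 were higher in heart controls and 4 of 6 Kupffer markers were lower. Also called higher there were 5 of 6 neutrophil, 4 of 6 mast cell and 4 of 5 natural killer cell markers, while 2 mast cell markers were lower. T cell markers had 2 higher and 3 lower of 7, B cell markers 1 and 2 of 6, and endothelial markers 3 and 2 of 6. The part of these cell types in the result was not tested. Without liver control replicate 1 the macrophage and Kupffer counts were 6 and 5, and 32.5% of all named genes were called higher and 28.6% lower. Neutrophil, mast cell and natural killer cell markers called higher were then 6, 4 and 4. Mast cell markers had 0 called lower, and B cell markers had 1 called in each direction.

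The order of the 5 groups differed among the genes. Fcgr1, Fcgr3, Fcer1g and Tyrobp ran from heart allograft through heart control, liver POD8 and liver POD5 to liver control. Fcgr2b differed from these only in that heart controls came before heart allografts. Fcgr4 ran from heart allograft to liver POD8, then heart control, liver POD5 and liver control, and it is the only one of the 7 whose liver allografts at POD8, at 4246 to 4885, lay above the heart controls, at 2196 to 3596. Neighbours that overlapped were the heart groups for Fcgr3, Fcgr2b and Tyrobp, heart control and liver POD8 for Fcgr1 and Fcer1g, heart control and liver POD5 for Fcgr4, POD8 and POD5 for Fcgr2b, and liver POD5 and liver control for Fcgr3. Trem2 was highest in heart controls, then heart allografts, and its 3 liver groups overlapped one after the other.

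The other genes of the pathway were described from lists, with the same test. Of 22 kinases and signalling proteins downstream of an ITAM, 17 were called higher and 1 lower in the heart, with a median log2 difference of 1.40 against 0.00 over all named genes. Of all named genes, 18.6% were called higher and 19.4% lower in the heart. In the liver 3.39% were called higher at POD5 and 4.66% at POD8, and 2.95% and 5.83% without liver control replicate 1. Counts of the lists below are read against the same shares. As for all lists here, the genes were chosen with earlier results of these data known. The largest log2 difference in the heart was that of Lat, an adaptor of T cell signalling (4.83). Syk, the kinase that binds the ITAM, was called at 0.55 (adjusted p = 0.0352), and Vav3, a guanine nucleotide exchange factor, was called lower at -0.55. In the liver 6 were called higher at POD5 and 12 at POD8, and 5 and 16 without liver control replicate 1. Syk was at 1.32 (adjusted p = 0.0954) at POD5 and at 1.86 (adjusted p = 0.0373) at POD8.

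Of 19 other receptors that pair with Tyrobp or Fcer1g, 10 were called higher and 2 lower in the heart. The 2 lower calls are no larger a share than the 19.4% of all named genes called lower, while 18.6% were called higher. Klrk1, the NKG2D receptor, led at 4.17, followed by the natural killer receptor Ncr1 at 2.72. The 2 lower ones were the C-type lectin Clec4n (-2.22) and Cd300ld (-0.91). In the liver 2 were called at POD5, Klrd1 (4.34) and Klrk1 (at least 4.52-fold, since it was not well above background on any liver control), and 7 at POD8. The counts were 4 and 8 without liver control replicate 1. With all arrays, 3.39% of all named genes were called higher at POD5 and 4.66% at POD8.

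Of 7 other ITAM or adaptor chains, 4 were called higher in the heart, at both liver times too. The heart was led by the T cell chains Cd3d (4.68) and Cd3g (4.02). In the liver the largest were Cd247, the zeta chain, which was not well above background on any liver control and was higher by at least 15.8-fold at POD8, and Cd3g, at 5.51 at POD5 and 5.31 at POD8, which was well above background on 2 of 3 liver controls. Leaving out liver control replicate 1 gave 3 called at POD5 and 4 at POD8. Hcst, the DAP10 adaptor, was called in the liver at 1.88 and 1.73 and stood at 0.97 in the heart (adjusted p = 0.0810). The 3 Cd3 chains are also on the T cell marker list.

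Of 18 ITIM receptors and phosphatases, which oppose these signals, 10 were called higher and 0 lower in the heart, led by the phosphatase Ptpn6 (2.55) and the collagen receptor Lair1 (2.44). Inpp5d, which encodes the SHIP1 phosphatase that Fcgr2b recruits, stood at 0.74 in the heart (adjusted p = 0.0828) and was called in the liver at 1.95 and 1.89. The liver had 5 called higher at POD5 and 9 at POD8, and 4 and 12 without liver control replicate 1. The shares of all named genes called higher were 18.6% in the heart, and 3.39% and 4.66% in the liver with all arrays. The largest there were Cd300lf (2.07) and Inpp5d at POD5, and Cd72 (2.28) and Cd300lf (2.10) at POD8.

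**Figure D4:**
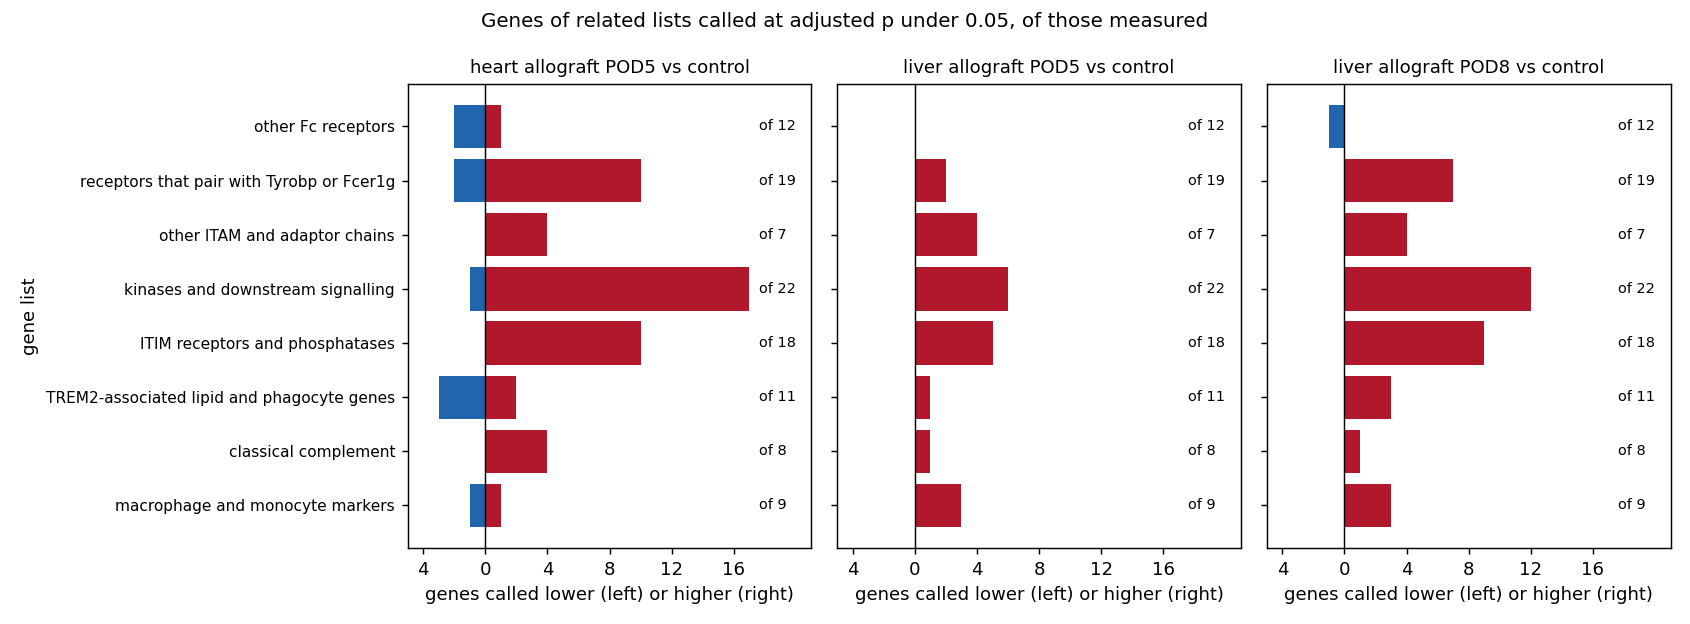
Number of genes of 8 lists (y axis) called higher (red, to the right) or lower (blue, to the left) at an adjusted p under 0.05 (x axis), with the number measured, in the 3 comparisons. The kinase list has 17, 6 and 12 genes called higher of 22, while the list tied to TREM2 has 2 higher and 3 lower of 11 in the heart.

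Genes tied to TREM2 in lipid handling and phagocytosis had 2 of 11 called higher and 3 lower in the heart, shares close to the 18.6% and 19.4% of all named genes. The lower ones were Spp1, which encodes osteopontin (-2.23), the lipoprotein lipase Lpl (-2.06) and the lipid carrier Apoe (-1.41), and the higher ones were the integrin Itgax (2.13) and the protease Adam17 (0.74). In the liver Itgax was called at POD5 (3.47), and Itgax (3.98), Lpl (1.14) and Cd9 at POD8, and 2 and 4 genes were called without liver control replicate 1. For the interaction, 6 of 11 were called lower in the heart than in the liver response, against 9.54% of all named genes, and 5 without liver control replicate 1. Heart muscle expresses Lpl and hepatocytes express Apoe, so the list is not specific to macrophages. Of its 11 genes, 10 were higher in heart than in liver controls, against 31% of all named genes.

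Among 12 other Fc receptors, the heart had 1 called higher, Trim21, a cytosolic receptor for antibody (2.09), and 2 lower, the Fc receptor-like gene Fcrls (-4.65) and Fcgrt, the neonatal Fc receptor that recycles IgG (-1.02), which are no larger shares than the 18.6% and 19.4% of all named genes. In the liver 0 were called at POD5 and Fcrls was called lower at POD8 (-1.08), where 1.73% of all named genes were called lower. Without liver control replicate 1, 1 was called higher and 1 lower at POD8, against 5.83% and 2.19% of all named genes. The mast cell and B cell Fc receptors Fcer1a and Fcer2a, for IgE, were not called in the 3 comparisons. Of 8 classical complement genes, 4 were called higher in the heart, against 18.6% of all named genes. They were led by C2 (2.35) and C4b (1.26), with C1qa at 0.75. In the liver C5ar1 was called at both times while not well above background on any array of either group, so no fold is given. It was the 1 complement gene called there, against 2 at POD5 and 3 at POD8 without liver control replicate 1. Of all named genes, 3.39% and 4.66% were called higher at POD5 and POD8 with all arrays.

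The named genes whose main probe ran most like each of the 7 over the 15 arrays were found among 14915 candidates by Pearson's r, as a description. The 15 arrays fall into 5 groups of 2 organs, so the points of a group share its level. They were Cxcl16, Pdk3 and Asah1 for Fcgr1 (0.984 to 0.989), Casp1, Aif1 and Dram1 for Fcgr4 (0.984 to 0.992), Clec4a3, Snx6 and Lyz2 for Fcgr3 (0.989 to 0.993), and Ctbp2, Rab31 and Capza2 for Fcgr2b (0.988 to 0.989). For the adaptors they were Bst1 and Tlr6 for Fcer1g (0.985 to 0.988) and C1qb, Cd300c2 and Gpr137b for Tyrobp (0.985 to 0.991). For Trem2 they were Anxa1, Fap and Ptgfrn (0.983 to 0.987). No gene appeared for more than 1 of the 7. Among the 7 themselves, Fcgr1 and Fcer1g ran closest (0.990) and Fcgr4 and Trem2 least alike (0.487).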

How the data were processed

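Total RNA of 15 tissue samples was hybridised to single-colour Agilent mouse arrays. The authors deposited scanner output in which the intensity of each spot was processed by Feature Extraction 10.5.1.1, with background subtraction and detrending within the array but no scaling between arrays. From 43379 spots on 41174 probes, outlier spots were left out (47 to 113 per array), spots of a probe were averaged on the log2 scale and the 15 arrays were quantile normalized; the deposited intensity was the start of every value, and each log2 value was computed from it as deposited. Probes were named through the accession beside each probe, which matched 26690 (64.8%) to 18217 RefSeq symbols of GRCm38.p6, used for names, neighbours and promoter sequence only. The brightest probe stood for a gene.

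Pairs of groups of 3 arrays were compared with limma 3.58.1 in R 4.3.3 (lmFit and eBayes), and an adjusted p under 0.05 after Benjamini-Hochberg adjustment over all probes was called. Counts of all genes are over main probes of named genes. The interaction used 12 arrays. The study gives 3 mice per time point for its PCR assays, but does not say that replicates of the arrays were separate animals. Each p-value therefore weighs a difference against the spread between these samples. No 2 arrays held identical values. Array number limits precision. A probe that was not well above background on any array of the dimmer group has only a lower bound on its fold.

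The alternatives were 75th percentile scaling, normexp with an offset of 50 (on the median signals), quantile normalization within each organ, a filter on dim probes, 1 fit of 5 groups, all probes of a gene averaged, slide as a random block, quantile normalization of the arrays compared only, a trended and robust prior, outlier spots kept, the replicate number as a block, Bonferroni adjustment, leaving out each array, the methods' t-test, and the methods' standardized fold change (SFC), in which a spread is taken from bins of 1000 probes of like signal. The other Fcgr2b probes and the list counts without liver control replicate 1 were added after seeing the data. From each pathway list the text names the 2 called genes with the largest absolute difference in a comparison and the called genes of the opposite direction; Syk, Inpp5d, Hcst, C1qa, Apoe, Cd9, Fcer1a, Fcer2a and the marker genes were chosen after their values were seen. For each of the 7 genes it names the 3 genes of highest correlation. Some genes that these rules name are not reported here. The 7 genes and the lists were chosen with earlier results of these data known. Replicate numbers did not pair the samples (correlations of deviations from -0.35 to 0.20). The fits were tested on simulated data. Figures were drawn with matplotlib 3.10.9.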

Additional observations from a re-analysis of the deposited data

Results flagged for a closer look

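The response of Trem2 differed between heart and liver at POD5, by -2.04 on the log2 scale in the interaction over 12 arrays (limma, adjusted p = 0.0269). All 3 heart allografts lay below all heart controls, and the liver groups overlapped. The share of all named genes with that lower order was not counted, while 19.4% were called lower in the heart. The heart and liver grafts also differed in strains and in operation, which cannot be told apart from the organ. No POD5 allograft shared a slide with a control of its organ, so slide cannot be told apart either.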

How the results depend on the processing

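Of 896 values of the 7 genes under the alternatives, 790 kept their direction and their side of the threshold, 74 fell short of it, 19 passed it and 13 changed sign. Fcgr1 and Fcgr4 in the heart remained called when any array was left out. Under Bonferroni adjustment of limma, the methods' t-test or SFC, the heart had 0 called higher in place of 3 and 0 lower in place of 1, and the control organs 0 in place of 7. Of 41025 probes in the heart, the main test called 6394 higher and 6722 lower. These 3 alternatives called 69 and 29, 12 and 7, and 138 and 104. Between control organs, probes called higher went from 10460 to 474, 124 and 169. The liver at POD5 had 1 called with normexp, 2 once dim probes were filtered out and 4 when all 5 groups shared a fit, in place of 0. Of 41155 probes, those called higher went from 981 to 1278 with normexp and 3325 with the shared fit. The filter gave 1595 of 23754. At POD8, in place of 2, there were 4 under 75th percentile scaling, 5 when all 5 groups shared a fit, 1 by SFC, and 0 under Bonferroni adjustment, by the methods' t-test with either adjustment, and within the shared slide. Of 41157 probes, those called higher went from 1453 to 2332 under the scaling, 2882 in the shared fit and 337 by SFC. They were 39 under Bonferroni adjustment, 607 and 14 by the t-test with Benjamini-Hochberg and Bonferroni adjustment, and 0 within the slide. The interaction had 0 called lower in place of 1 under Bonferroni adjustment and with slide as a random block. Of 41006 probes, those called lower went from 2977 to 53 and 1509. The causes were not tested.

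Leaving out each array in turn gave 2 to 3 called higher and 0 to 1 lower in the heart, 0 to 3 higher in the liver at POD5, 0 to 4 at POD8 and 0 to 1 lower in the interaction. Over all probes, the heart then had 3766 to 8510 called higher and 3781 to 8751 lower. The liver had 28 to 837 called higher at POD5 and 289 to 1861 at POD8, and the interaction 1581 to 3421 lower. Leaving out an array changed the sign of small differences that were not called. In the heart, Fcgr3 ran from -0.12 to 0.30, Fcgr2b from -0.22 to 0.018 and Tyrobp from -0.046 to 0.46. Between POD8 and POD5, Trem2 ran from -0.41 to 0.10. In the interaction, Fcgr1 ran from -0.51 to 0.27, Fcgr4 from -0.11 to 0.78 and Fcer1g from -0.46 to 0.032. Of other alternatives, SFC turned heart Fcgr3 (-0.12) and Tyrobp (-0.051), the mean over probes turned Fcgr2b (0.22), and the other Fcgr2b probes turned the heart changes relative to Fcgr2b of Fcgr3 (-0.24) and Tyrobp (-0.14).

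The replicate block, run although the numbers do not pair the samples, gave 2 called higher and 0 lower in the heart, 0 at POD8, 7 between control organs and 0 in the interaction. Over all probes it called 4500 higher and 4359 lower in the heart and 0 at POD8. It called 8916 higher between control organs and 2406 lower in the interaction. Scaling to the 75th percentile put the median difference of all probes at 0.47 in the heart, -0.39 at POD5, -0.47 at POD8, -0.82 between control organs and 0.66 in the interaction, against -0.08 to 0.08 after quantile normalization, and turned the heart split from 6394 higher and 6722 lower to 15736 and 5482, without turning the direction of the 7 genes. At POD8 the split went from 1453 and 593 to 2332 and 10702, between control organs from 10460 and 9321 to 8387 and 20014, and in the interaction from 2628 and 2977 to 12999 and 2727. Normalization within an organ was not run between organs, nor the t-test and SFC for the interaction.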
